A study of Mus musculus with 11 samples.

Results

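The G2 and mitosis genes are 51 genes that act from the end of DNA replication to cell division, described here in splenic germinal center B cells of mice. They were taken by symbol from a list of 51 names in 10 role groups. All 51 were among the 48593 rows of the deposited table, and all 51 had a mean of at least 10 normalized counts, the minimum for a test, which 16515 rows met. A normalized count is a gene's read count divided by a DESeq2 size factor of its library. Mice had been injected with sheep red blood cells, and B220+ PNA+ CD95+ cells were sorted from the spleen 12 days later for RNA sequencing. The comparisons ask which transcripts differ in germinal center B cells that lack 1 of the related lysine acetyltransferases CBP, encoded by Crebbp, and p300, encoded by Ep300.

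The CBP-KO group (3 libraries: CBP-KO_1, CBP-KO_53 and CBP-KO_55) was Crebbp fl/fl;Ep300+/+;Cg1cre/+. The p300-KO group (3 libraries: p300-KO_18, p300-KO_287 and p300-KO_289) was Crebbp+/+;Ep300 fl/fl;Cg1cre/+. The WT group (5 libraries: WT_4, WT_7, WT_41, WT_46 and WT_288) was Crebbp+/+;Ep300+/+;Cg1cre/+, so every animal, controls included, carried the Cre allele. Cg1cre expresses Cre from the constant region gene of IgG1, which B cells switch on around the time they enter the germinal center, and the share of cells in which a floxed allele was deleted was not measured. The labels describe the WT mice as littermates from crosses of Crebbp+/- animals and name no WT littermates for the p300-KO mice. A difference of cross in comparisons with p300-KO therefore cannot be told apart from the loss of Ep300. The labels give each library its own number but no animal, age, sex or batch, so p-values measure the spread between these libraries.

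A cell in G2 builds up cyclin B and the kinase CDK1, whose joint activity, released by CDC25 phosphatases, starts mitosis. Condensin then compacts the chromosomes, kinesins and other microtubule proteins build the spindle, kinetochores attach each chromosome to it, and the anaphase-promoting complex ends mitosis by marking cyclin B and securin for destruction. Transcription of most of these genes peaks in G2 and mitosis. It is known to be held down by the DREAM complex in resting and early cycling cells and driven later by the MMB complex with B-Myb and FOXM1, through a promoter element called CHR (letters TTTGAA or TTCGAA), often beside CCAAT boxes that bind NF-Y. Germinal center B cells divide fast, mostly in the dark zone, and are selected in the light zone. In these bulk samples a lower or higher value cannot be told apart as fewer or more cells in G2 and mitosis or as less or more RNA in each of them.

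The promoters of the 7 members that passed the test against WT are shown first, because the results below turn on these genes and because they differ in the letters named above. Each line gives 250 bases before and 30 bases after the RefSeq start of transcription (assembly GRCm38.p6, the build of the deposited table), 5′ to 3′ on the strand of the gene. Capitals mark CCAAT and TTTGAA on either strand, which read ATTGG and TTCAAA where they lie on the other strand, and TTCGAA, which reads the same on both. The 2 genes that were higher in CBP-KO than in WT come first.
Ccnb2 (chr9:70421525-70421804, minus strand): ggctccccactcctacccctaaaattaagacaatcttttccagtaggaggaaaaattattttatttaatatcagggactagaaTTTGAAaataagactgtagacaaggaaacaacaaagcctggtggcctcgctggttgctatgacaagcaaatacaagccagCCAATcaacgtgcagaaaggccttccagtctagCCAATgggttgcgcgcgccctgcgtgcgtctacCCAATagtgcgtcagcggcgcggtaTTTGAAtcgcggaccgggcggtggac
Anln (chr9:22389177-22389456, minus strand): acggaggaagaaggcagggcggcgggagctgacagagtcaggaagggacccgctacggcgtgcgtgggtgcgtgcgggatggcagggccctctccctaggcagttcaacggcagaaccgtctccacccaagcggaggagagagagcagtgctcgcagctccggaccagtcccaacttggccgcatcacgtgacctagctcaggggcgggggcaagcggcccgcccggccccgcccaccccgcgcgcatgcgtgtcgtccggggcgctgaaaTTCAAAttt
The 5 genes that were lower in p300-KO than in WT follow.
Nek2 (chr1:191821223-191821502, plus strand): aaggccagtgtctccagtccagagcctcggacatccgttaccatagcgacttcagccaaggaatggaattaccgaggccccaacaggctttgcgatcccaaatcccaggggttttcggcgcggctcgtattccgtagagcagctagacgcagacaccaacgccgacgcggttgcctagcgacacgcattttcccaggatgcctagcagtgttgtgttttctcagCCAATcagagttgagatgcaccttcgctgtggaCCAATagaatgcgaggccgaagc
Cdc25b (chr2:131186698-131186977, plus strand): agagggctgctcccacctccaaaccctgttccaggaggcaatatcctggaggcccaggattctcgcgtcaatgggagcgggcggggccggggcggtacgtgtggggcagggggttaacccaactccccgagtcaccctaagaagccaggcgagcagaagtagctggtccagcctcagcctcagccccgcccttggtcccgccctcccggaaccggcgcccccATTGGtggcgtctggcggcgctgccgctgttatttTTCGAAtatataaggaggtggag
Ncapg (chr5:45669675-45669954, plus strand): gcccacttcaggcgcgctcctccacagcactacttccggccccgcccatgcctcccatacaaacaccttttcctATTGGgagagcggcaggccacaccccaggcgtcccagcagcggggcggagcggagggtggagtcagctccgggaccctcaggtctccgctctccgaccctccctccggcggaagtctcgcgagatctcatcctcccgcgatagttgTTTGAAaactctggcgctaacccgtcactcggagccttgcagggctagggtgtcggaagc
Pttg1 (chr11:43425952-43426231, minus strand): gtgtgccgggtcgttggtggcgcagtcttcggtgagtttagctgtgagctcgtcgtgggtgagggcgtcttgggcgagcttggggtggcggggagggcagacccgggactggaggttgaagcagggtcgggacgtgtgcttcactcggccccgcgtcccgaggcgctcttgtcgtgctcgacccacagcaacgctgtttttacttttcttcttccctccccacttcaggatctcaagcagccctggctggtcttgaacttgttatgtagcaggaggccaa
Mybl2 (chr2:163054385-163054664, plus strand): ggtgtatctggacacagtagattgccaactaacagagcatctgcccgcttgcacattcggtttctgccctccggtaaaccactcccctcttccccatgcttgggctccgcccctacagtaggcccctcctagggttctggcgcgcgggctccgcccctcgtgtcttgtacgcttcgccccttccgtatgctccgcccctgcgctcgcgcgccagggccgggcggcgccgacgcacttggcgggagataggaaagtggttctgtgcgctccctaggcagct
Ccnb2 has CCAAT 3 times, at -87, -54 and -21 from the start, and TTTGAA at -167 and 5. Anln has TTTGAA on the other strand at 22 and no CCAAT. Cdc25b and Ncapg each hold 1 CCAAT and 1 match of the CHR letters, Nek2 holds CCAAT 2 times and no CHR letters, and the windows of Pttg1 and Mybl2 hold neither. The Pttg1 window lies within the longer GENCODE gene, so it is not the sequence upstream of that gene's outermost start. The counts below use the whole window of the table, from 250 bases before to 50 after the start, and there Anln has a TTTGAA at 29 that runs past the printed end.

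Of the 51 members, 42 had an entry in the RefSeq promoter table. Foxm1, Tpx2, Spc24, Kif20a, Smc4, Cdc25c, Ccna2, Aurkb and Incenp had none. CCAAT stood in 33 of 42 windows (78.6%), against 37.4% of all 32851 promoters in the table and 66.7% of 18 promoters of S phase genes. TTTGAA or TTCGAA stood in 34 of 42 (81.0%), against 19.2% of all promoters and 27.8% of the S phase promoters. Both stood in 30 of 42 (71.4%), against 7.52% of all promoters. Among 90 promoters of other mitotic genes, from the 6 lists described below, CCAAT stood in 55.6%, CHR letters in 43.3% and both in 28.9%. With 1 promoter for each of 10207 tested genes the shares were 39.4%, 14.2% and 6.26%. The kinesins had CHR letters in 7 of 7 windows, the kinetochore genes in 4 of 7, the kinases in 6 of 7 and the condensin genes in 3 of 3. Among members that passed the test in at least 1 comparison, 7 of 11 windows held CHR letters, beside 27 of 31 among the others. These matches are descriptions of the letters in a window, and a window without a match says only that the letters are not there.

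The libraries held from 53550726 reads (WT_7) to 132861266 reads (WT_288). Ep300 averaged 14466 ± 600.4 normalized counts in p300-KO and 21268 ± 1276 in WT (SD, n = 3 and 5, as for all means below with n = 3 for CBP-KO), a log2 fold change of -0.55 (adjusted p = 0.00015). Crebbp averaged 8247 ± 612 in CBP-KO and 8866 ± 743 in WT (log2 -0.10, adjusted p = 0.459), and since the table holds whole genes rather than exons, its level does not check the CBP-KO labels. Each of 6 B cell markers and 6 germinal center markers averaged at least 5409 normalized counts in every group. The T cell genes Cd3d, Cd3e, Cd3g and Cd8a averaged at most 7.75 in any group, while Lck of the same list averaged 5100.0 in CBP-KO, 5271 in p300-KO and 9718 in WT. By Xist and Y-linked transcripts, 6 libraries were Xist-high, 4 were Y-high (CBP-KO_1, p300-KO_287, WT_41 and WT_288), and p300-KO_18 held both. Calls of single members against p300-KO, and counts of calls over lists where they change, are therefore also given without p300-KO_18.

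Expressed per kb of exon, since levels of different genes can be compared only per length, the members ranged from 637 to 25911 normalized counts per kb over all 11 libraries. Mki67, the proliferation marker Ki-67 that coats mitotic chromosomes, was highest at 25911. Top2a, the topoisomerase that untangles chromosomes, followed at 12592 per kb, then Cdc20 at 11002 and Ccnb2 at 10528. Pttg1 (637), Anln (641) and Cdc25c (736) were lowest. The members' normalized counts summed to between 1.47% and 1.78% of a library's total. The median coefficient of variation among the 5 WT libraries was 4.81% over the members, from 1.34% for Kif4 to 10.9% for Smc2, against 11.01% over all tested genes and 6.48% over the 7733 genes at least as abundant as the lowest member.

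Most members stood slightly higher in CBP-KO and slightly lower in p300-KO than in WT. Each gene was tested with limma on log2(normalized count + 1) in 1 fit of the 11 libraries, two-sided, with Benjamini-Hochberg adjustment over all 16515 tested genes, and a log2 fold change is on that scale. In CBP-KO against WT, 2 of 51 members rose (3.92%), Ccnb2 and Anln, and 0 fell by limma at adjusted p below 0.05, where 3.48% of all tested genes were higher and 4.88% lower. By the same test in p300-KO against WT, 5 of 51 fell (9.8%), Nek2, Cdc25b, Pttg1, Ncapg and Mybl2, and 0 rose, where 6.09% of all tested genes were lower and 5.84% higher. Set against each other, CBP-KO was higher than p300-KO for 9 of 51 members (17.6%) and lower for 0, where 4.79% of all tested genes were higher and 4.63% lower. At an unadjusted p below 0.05 by limma, 17 members were higher (10.7% of all tested genes) and 0 lower (11.8%) in CBP-KO than in WT. In p300-KO against WT 1 (Cenpf) was higher (12.9%) and 11 were lower (12.8%). In CBP-KO against p300-KO 23 were higher (12.4%) and 0 lower (12.6%). The share higher in CBP-KO than in WT is near the background and is no result about the members as a group. The share lower in p300-KO than in WT was 5.88% after quantile normalization, against 5.93% of all tested genes. Without p300-KO_18 it was 5.88%, against 3.95%. That share is not read as a result about the members as a group either.

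Other tests moved these counts, and the calls in the paragraphs on single genes and lists are limma's unless another tool is named. The shares of all tested genes given above are those to set beside limma's counts per role group below. Those counts are descriptions and no result about a role group. In CBP-KO against WT, edgeR called 2 members higher (3.44% of all genes) and 0 lower (4.57%), and DESeq2 called 9 higher (5.45%) and 0 lower (6.91%). In the same comparison limma with library weights called 12 higher (7.65%) and 0 lower (8.88%), and limma after quantile normalization 7 higher (3.91%) and 0 lower (4.54%). In p300-KO against WT, edgeR called 0 higher (5.95%) and 5 lower (5.92%), and DESeq2 called 1 higher (8.04%), Cenpf, and 6 lower (8.31%). There library weights gave 0 higher (6.93%) and 4 lower (7.3%), and quantile normalization 1 higher (6.4%) and 3 lower (5.93%). In CBP-KO against p300-KO, edgeR called 11 higher (4.67%) and 0 lower (4.56%), the added genes being Birc5 and Kif4, and DESeq2 called 14 higher (6.95%) and 0 lower (7.21%). Library weights gave 15 higher (8.43%) and 0 lower (8.57%), and quantile normalization 8 higher (4.79%) and 0 lower (4.89%).

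The median log2 fold change of the members was 0.12 in CBP-KO against WT (all tested genes 0.0065), -0.06 in p300-KO against WT (all -0.0052) and 0.17 in CBP-KO against p300-KO (all -0.0033). The log2 fold change was above 0 for 45 of 51 members in CBP-KO against WT, where 51.2% of all tested genes were above 0. It was above 0 for 16 of 51 in p300-KO against WT, where 49.0% of all genes were above 0. CBP-KO stood above p300-KO for 48 of 51 members, where 49.4% of all genes were above 0, and the exceptions were Cenpf, Kif20a and Mki67. Both knockouts were set against the same 5 WT libraries, so their differences from WT are not independent, and the direct comparison is the test of a difference between them. All members were read from the same libraries, so they are not independent of each other.

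**Figure D1:**
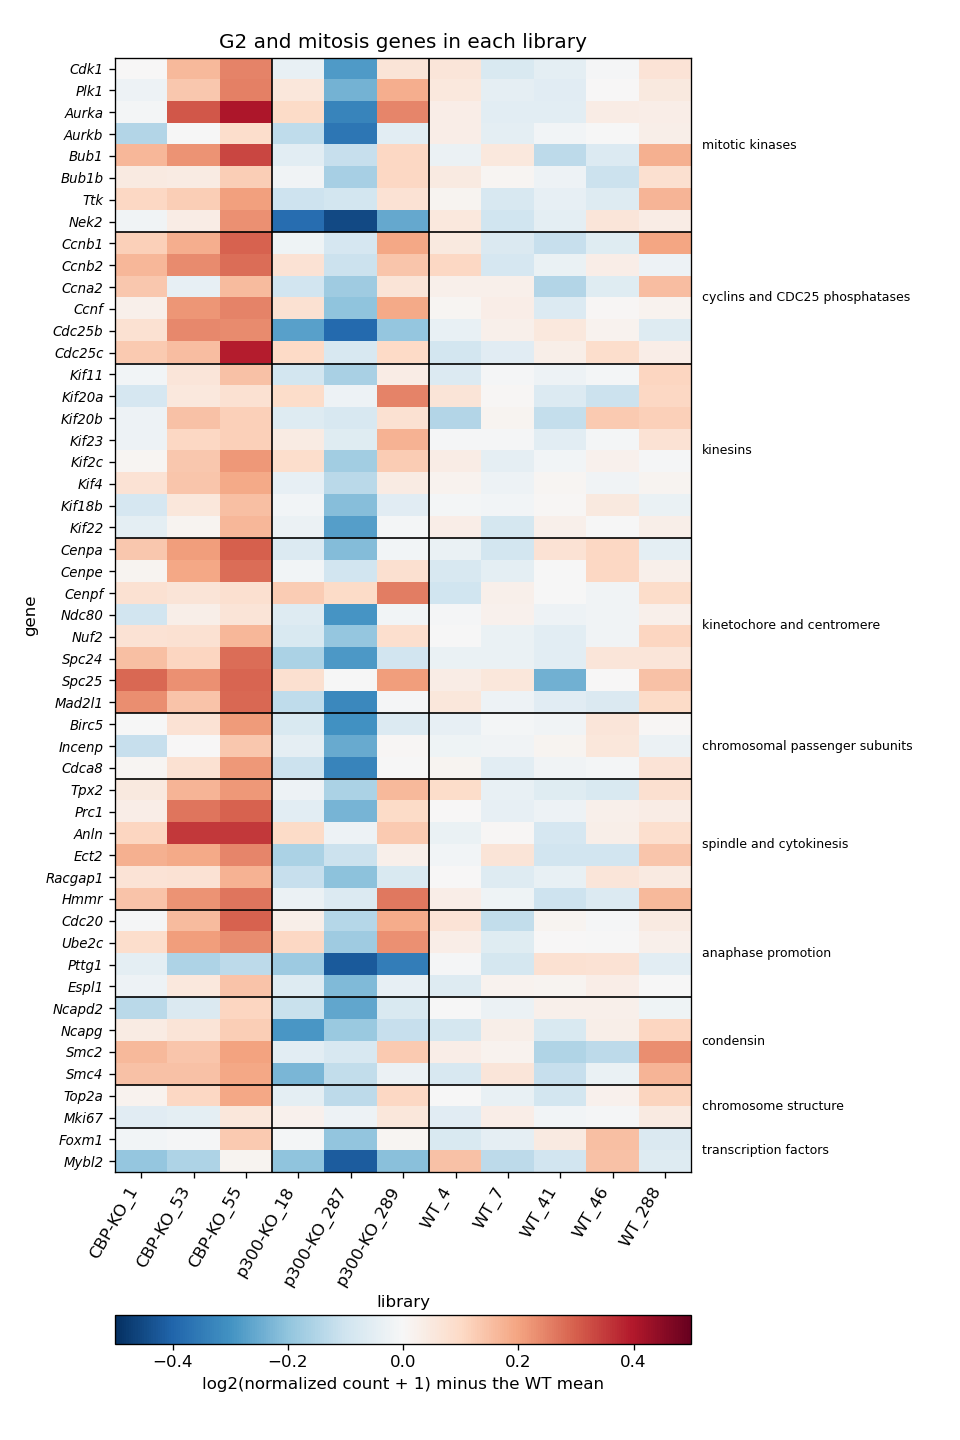
Log2(normalized count + 1) minus the WT mean (colour) for each of the 51 genes (rows, by role group) in each of the 11 libraries (columns: CBP-KO, p300-KO, WT). CBP-KO_55 is red in most rows, with the highest value for 40 of 51 genes, and p300-KO_287 is blue in most, with the lowest value for 36.

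The heatmap by library shows that libraries of 1 group differed among themselves. The median over the 51 members, as log2 difference from the WT mean, was 0.02 for CBP-KO_1, 0.12 for CBP-KO_53, and 0.21 for CBP-KO_55. It was -0.05 for p300-KO_18, -0.18 for p300-KO_287, and 0.06 for p300-KO_289. The WT libraries lay between -0.04 and 0.04. CBP-KO_1 thus fell inside the WT range and the other CBP-KO libraries above it, while p300-KO_287 and p300-KO_18 lay below it and p300-KO_289 above it. CBP-KO_55 held the highest of the 11 values for 40 of 51 members, and p300-KO_287 the lowest for 36. Within Xist-high libraries the members' median difference was 0.17 for CBP-KO against WT (2 libraries against 3) and 0.07 for p300-KO against WT (1 against 3), and within Y-high libraries it was 0.02 (1 against 2) and -0.19 (1 against 2). CBP-KO stood above p300-KO in both classes, by 0.10 with 43 of 51 members higher (Xist-high, 2 libraries against 1) and by 0.21 with 48 of 51 higher (Y-high, 1 against 1). So the sign of p300-KO against WT differed between the classes, on 1 p300-KO library in each.

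**Figure D2:**
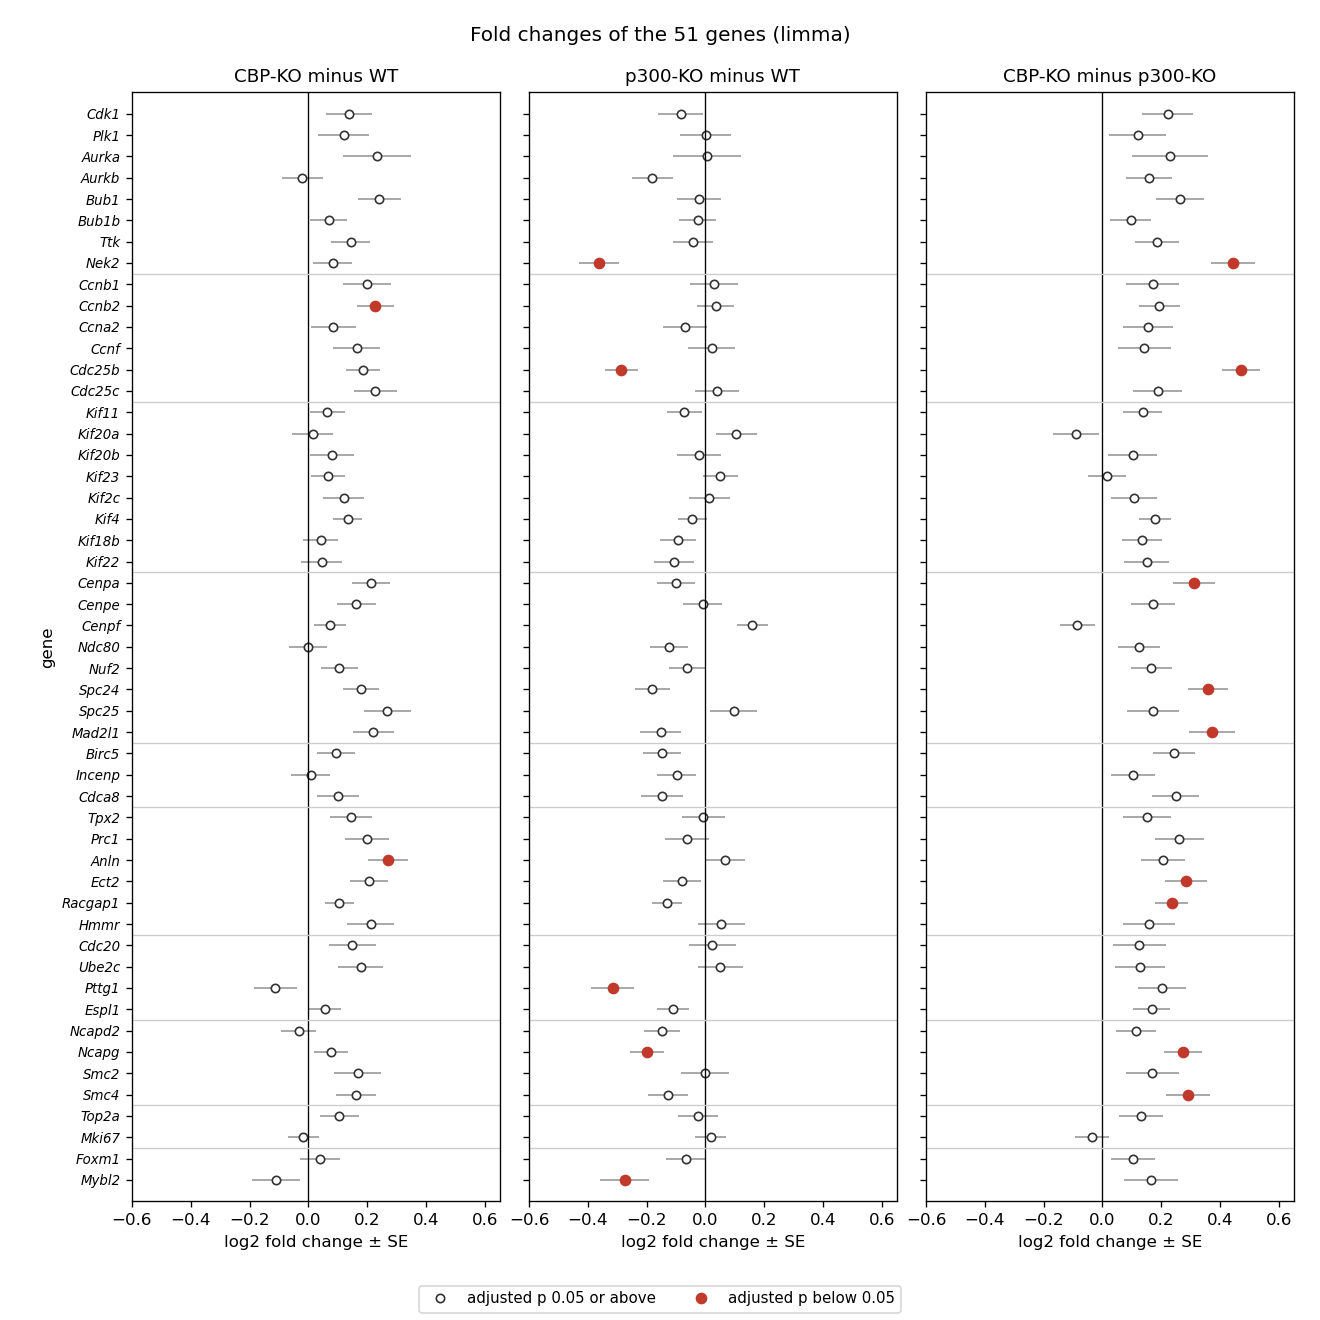
Log2 fold change ± SE from limma for the 51 genes (rows, lines separate role groups) in CBP-KO minus WT, p300-KO minus WT and CBP-KO minus p300-KO. Filled points passed adjusted p below 0.05: 2 to the right in the first panel, 5 to the left in the second, 9 to the right in the third.

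Of the 8 mitotic kinases, 1 fell in p300-KO against WT and the other 7 did not pass by limma, and 0 of 8 passed in CBP-KO against WT by limma, while DESeq2 called Bub1 there. Nek2, a centrosomal kinase that loosens the link between the centrosomes before mitosis, was the gene that fell. It had 14427, 13753 and 15742 normalized counts in p300-KO and 19484, 17524, 18178, 19565 and 19252 in WT (p300-KO_18, _287 and _289; WT_4, _7, _41, _46 and _288, an order kept below). Every p300-KO library lay below every WT library. The means were 14641 ± 1012 in p300-KO and 18800.4 ± 904 in WT (SD, n = 3 and 5), a log2 fold change of -0.36 ± 0.07 (SE; adjusted p = 0.00437). CBP-KO had 18534, 19262 and 22026 (CBP-KO_1, _53 and _55), with CBP-KO_1 and CBP-KO_53 inside the WT range and CBP-KO_55 above it (log2 0.08 against WT, adjusted p = 0.528). CBP-KO was higher than p300-KO with no overlap (log2 0.44 ± 0.07, adjusted p = 0.00318). Both Nek2 calls held in each of the 24 alternatives, with adjusted p at most 0.032 against WT and 0.0169 between the knockouts, and without p300-KO_18 the values were 0.0225 and 0.0168. An antisense gene, Gm38037, overlaps Nek2 exons, and without strand information its reads cannot be told apart.

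Bub1, a kinase of the spindle checkpoint, averaged 13681 ± 813 in CBP-KO, 11409 ± 896 in p300-KO and 11592 ± 977 in WT. Its log2 fold change of 0.24 in CBP-KO against WT did not pass by limma (adjusted p = 0.0652), nor did 0.26 in CBP-KO against p300-KO (adjusted p = 0.0643), where the libraries did not overlap. By DESeq2 both passed (adjusted p = 0.032 and 0.0315). Ttk, the checkpoint kinase MPS1, stood at log2 0.14 in CBP-KO and -0.04 in p300-KO against WT (adjusted p = 0.227 and 0.761). Aurkb, the kinase of the chromosomal passenger complex, was lower in each p300-KO library than in any WT library, at 14837, 12615 and 15599 in p300-KO and 16582, 15640.0, 16043, 16174 and 16547 in WT. The difference of -0.18 did not pass (adjusted p = 0.121). Cdk1, the kinase that starts mitosis, Plk1 and Aurka, which act on centrosomes and spindle, and Bub1b, the checkpoint protein BUBR1, had log2 fold changes between 0.07 and 0.23 in CBP-KO and between -0.08 and 0.0046 in p300-KO against WT. For Aurka, which passed in CBP-KO against WT with library weights alone among the tests run, the spread was wide, from 6588 to 9806 in p300-KO and from 8208 to 10947 in CBP-KO, against 7969 to 8499.6 in WT.

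Among the 6 cyclins and CDC25 phosphatases, 1 rose in CBP-KO and 1 fell in p300-KO against WT. Ccnb2, cyclin B2, a partner of CDK1, rose to 17141, 18005 and 18571 in CBP-KO, against 16436, 14433, 14939, 15651 and 15036 in WT. The lowest CBP-KO library lay above the highest WT library. The means were 17906 ± 720.1 in CBP-KO and 15299 ± 769 in WT (log2 0.23 ± 0.06, adjusted p = 0.0407), and p300-KO had 16059, 14201 and 16827 (log2 0.03 against WT, adjusted p = 0.79). The Ccnb2 call was lost in 9 of 24 alternatives, including without any 1 CBP-KO library, without p300-KO_18 (adjusted p = 0.0553) or without WT_7, WT_41 or WT_288, with adjusted p up to 0.167 without CBP-KO_55. A pseudogene, Ccnb2-ps, was counted apart with a mean of 287.6, and reads shared with it are uncertain.

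Cdc25b, the phosphatase that activates CDK1 at the start of mitosis, fell in p300-KO. It had 30314, 27971 and 32011 in p300-KO and 35690.4, 37326, 38040.5, 37099.8 and 35069.9 in WT, with no overlap (log2 -0.29 ± 0.06, adjusted p = 0.00708). CBP-KO had 38638, 43239 and 43188, each above every WT library, and the difference did not pass against WT (log2 0.18, adjusted p = 0.0703). Between the knockouts Cdc25b had the largest difference of the 51 members, with means of 41689 ± 2642 in CBP-KO and 30099 ± 2029 in p300-KO (log2 0.47 ± 0.06, adjusted p = 0.000864). Both calls held in each of the 24 alternatives, with adjusted p at most 0.0365 against WT and 0.00742 between the knockouts, and without p300-KO_18 the values were 0.0266 and 0.00492. The antisense gene Spef1 overlaps Cdc25b and had 7.02% of its mean level, at 2797 in CBP-KO, 2049 in p300-KO and 2688 in WT. Ccnb1, cyclin B1, Ccna2, cyclin A2, Ccnf, the F-box protein cyclin F, and Cdc25c, another activator of CDK1, had log2 fold changes from 0.08 to 0.23 in CBP-KO and from -0.07 to 0.04 in p300-KO against WT, and 0 of 4 passed by limma. Cdc25c in CBP-KO, at 3756, 3818 and 4500.3, lay above every WT library, of which the highest had 3637 (adjusted p = 0.08, and 0.0389 by DESeq2).

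The 8 kinesins, the motors that slide or shorten spindle microtubules, had 0 members past the test in any comparison by limma, and their median log2 fold changes were 0.07 in CBP-KO and -0.03 in p300-KO against WT. Kif4, which binds chromosomes and the central spindle, had 12911, 13521 and 13992 in CBP-KO and 12421, 12074, 12378, 12132 and 12402 in WT, without overlap (log2 0.13, adjusted p = 0.122). Between CBP-KO and p300-KO, which had 11939.7, 11180.2 and 12649, Kif4 stood at log2 0.18 (adjusted p = 0.0617, and 0.0497 by edgeR and 0.0239 by DESeq2). Kif2c, which takes apart microtubules at centromeres, stood at log2 0.12 in CBP-KO and 0.01 in p300-KO against WT (adjusted p = 0.342 and 0.934). Kif18b, which shortens astral microtubules, stood at 0.04 and -0.09 (adjusted p = 0.755 and 0.366), and Kif22, which pushes chromosome arms outward, at 0.04 and -0.11 (adjusted p = 0.768 and 0.367). Kif20a, a motor of the central spindle, was among the 3 members with a negative difference between CBP-KO and p300-KO (log2 -0.09, adjusted p = 0.522). Kif11, which separates the spindle poles, Kif20b and Kif23, which act in cytokinesis, had fold changes from 0.06 to 0.08 in CBP-KO and from -0.07 to 0.05 in p300-KO against WT.

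By limma 0 of the 8 kinetochore and centromere genes passed against WT in either knockout, and 3 of 8 were higher in CBP-KO than in p300-KO. DESeq2 called Cenpa, Mad2l1 and Spc25 higher in CBP-KO than in WT (adjusted p = 0.0259, 0.0358 and 0.024), and in p300-KO against WT it called Cenpf higher and Spc24 lower (0.0391 and 0.0408). Spc24, a subunit of the NDC80 complex that holds microtubules, had 5883, 5705 and 6426 in CBP-KO, 4746, 4346 and 4953 in p300-KO and 5175, 5175, 5105, 5522 and 5533 in WT. The 3 groups did not overlap, with CBP-KO on top and p300-KO at the bottom. The difference between the knockouts was log2 0.36 ± 0.07 (adjusted p = 0.00593; at most 0.0325 in the 24 alternatives, and 0.0212 without p300-KO_18), while log2 0.18 in CBP-KO and -0.18 in p300-KO against WT did not pass (adjusted p = 0.0905 and 0.0717). Mad2l1, the spindle checkpoint protein MAD2, had 18753, 17623 and 19440.0 in CBP-KO and 14622, 12741 and 15876 in p300-KO, with WT at 16592, 15671, 15330.5, 15187 and 17047. Every CBP-KO library lay above both other groups, and p300-KO overlapped WT (CBP-KO against p300-KO log2 0.37 ± 0.08, adjusted p = 0.0111; 0.0524 without CBP-KO_55, and 0.0334 without p300-KO_18).

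Cenpa, the histone H3 variant that marks centromeres, had 10419, 10983 and 11669.9 in CBP-KO and 9058, 8171 and 9416 in p300-KO, with WT at 9275, 8914, 9977, 10191 and 9192. Again CBP-KO lay above both other groups without overlap. The difference between the knockouts was log2 0.31 ± 0.07 (adjusted p = 0.0171; lost without CBP-KO_53, CBP-KO_55 or p300-KO_287, up to 0.078, and 0.044 without p300-KO_18), and log2 0.21 in CBP-KO against WT did not pass (adjusted p = 0.0598). Spc25, the partner of SPC24, had 4880.2, 4686 and 4906 in CBP-KO and 4104, 4168, 3387, 4014 and 4428 in WT, with WT_41 the lowest, and its log2 fold change of 0.27 did not pass (adjusted p = 0.0577). Cenpf, a kinetochore and nuclear matrix protein, was the 1 member for which all p300-KO libraries lay above WT. It had 22037, 21559.7 and 24154 in p300-KO and 18829, 20563, 20186, 19976 and 21549 in WT, the lowest p300-KO library just above the highest WT library (log2 0.16, adjusted p = 0.0736, and 0.0391 by DESeq2). Cenpf in CBP-KO, at 21297, 21122 and 21335, lay below every p300-KO library (log2 -0.09, adjusted p = 0.409). Ndc80 and Nuf2, whose proteins form the microtubule-binding end of the NDC80 complex, and Cenpe, a kinesin that sits on kinetochores, had log2 fold changes from -0.0006 to 0.16 in CBP-KO and from -0.12 to -0.01 in p300-KO against WT.

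The 3 chromosomal passenger subunits, which guide Aurora B to centromeres and the spindle midzone, had 0 members past limma's test in any comparison. Birc5, survivin, averaged 14618 ± 1126 in CBP-KO, 12353 ± 1115 in p300-KO and 13664 ± 363 in WT. Its log2 fold changes were 0.09 and -0.15 against WT (adjusted p = 0.435 and 0.165) and 0.24 between the knockouts (adjusted p = 0.0521, and 0.0468 by edgeR and 0.0209 by DESeq2), where the libraries did not overlap. Cdca8, borealin, stood at 0.10 and -0.15 against WT (adjusted p = 0.451 and 0.213) and at 0.25 between the knockouts (adjusted p = 0.0672, and 0.0353 by DESeq2). Incenp, the scaffold of the complex, stood at 0.01 and -0.10 against WT.

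Of the 6 spindle and cytokinesis genes, 1 rose in CBP-KO against WT and 0 passed in p300-KO, and 2 were higher in CBP-KO than in p300-KO. Anln, anillin, which ties the contractile ring to the membrane, had 5850.4, 6939 and 6925 in CBP-KO, 5803, 5326 and 5937 in p300-KO and 5303, 5452, 5118, 5535 and 5747 in WT. CBP-KO_1 lay just above the highest WT library, and CBP-KO_53 and CBP-KO_55 well above it. The means of 6571 ± 624 in CBP-KO and 5431 ± 238 in WT gave a log2 fold change of 0.27 ± 0.07 (adjusted p = 0.0261), the largest rise of the members in CBP-KO against WT. It did not pass when CBP-KO_53 (adjusted p = 0.138), CBP-KO_55 (0.132), WT_4 or WT_41 was left out, and without p300-KO_18 it held (0.0373).

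Ect2, the exchange factor that switches on RhoA at the cleavage plane, had 9613, 9683 and 10064 in CBP-KO and 7606, 7878 and 8647 in p300-KO, with WT at 8413, 8879, 7950.1, 7942 and 9339.7. Each CBP-KO library lay above both other groups (CBP-KO against p300-KO log2 0.28 ± 0.07, adjusted p = 0.0268). That call was lost in 6 of 24 alternatives: without CBP-KO_53, CBP-KO_55, p300-KO_287 or p300-KO_18 (adjusted p = 0.0993), without WT_46 and p300-KO_18 together, and with a sex covariate (0.12). By DESeq2 Ect2 was also higher in CBP-KO than in WT (adjusted p = 0.0389). Racgap1, which recruits ECT2 to the central spindle, had 22866, 22946 and 24626 in CBP-KO, 20143, 18951 and 20709 in p300-KO and 21826, 20869.9, 21242, 22739 and 22486 in WT. As for Spc24, the 3 groups did not overlap (CBP-KO against p300-KO log2 0.24 ± 0.06, adjusted p = 0.0202), and the call was lost in 5 of 24 alternatives: without CBP-KO_55 (0.0887), p300-KO_287 or p300-KO_18 (0.0527), after quantile normalization and with a sex covariate. Tpx2 and Hmmr, which act on spindle assembly, and Prc1, which bundles microtubules of the central spindle, stood at log2 0.14 to 0.21 in CBP-KO and -0.06 to 0.05 in p300-KO against WT, and 0 of 3 passed by limma.

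Of the 4 genes of anaphase promotion, Pttg1 fell in p300-KO against WT. Pttg1, securin, holds back separase until anaphase. It had 1210.0, 1028 and 1081 in p300-KO and 1366, 1294, 1447, 1443 and 1324 in WT. The groups did not overlap, and p300-KO_287 was lowest (log2 -0.32 ± 0.07, adjusted p = 0.0155; 0.0718 without p300-KO_287, lost too without p300-KO_289, and 0.0148 without p300-KO_18). CBP-KO had 1326, 1232 and 1253, below or inside the WT range (log2 -0.11, adjusted p = 0.414), the lowest fold change of the members in that comparison. Espl1, separase itself, stood at log2 0.06 in CBP-KO and -0.11 in p300-KO against WT (adjusted p = 0.606 and 0.234). Ube2c, the ubiquitin-conjugating enzyme of the anaphase-promoting complex, had 13808, 15030.1 and 15283 in CBP-KO, each above every WT library, of which the highest had 13280.0 (log2 0.18, adjusted p = 0.186). Cdc20, the activator of that complex, stood at log2 0.15 in CBP-KO and 0.02 in p300-KO against WT.

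Of the 4 condensin genes, 1 fell in p300-KO against WT (6.09% of all tested genes) and 0 passed in CBP-KO against WT. Higher in CBP-KO than in p300-KO were 2 of 4 (4.79% of all tested genes). Without p300-KO_18, 0 of 4 passed in any of these comparisons. Ncapg, a subunit of condensin I, had 17715, 18010.5 and 18726 in CBP-KO, 14048, 15149 and 15889 in p300-KO and 16189, 17548, 16309, 17552 and 18551 in WT. Each p300-KO library lay below every WT and every CBP-KO library, with p300-KO_18 lowest. The fall against WT (log2 -0.20 ± 0.06, adjusted p = 0.0437) was lost in 14 of 24 alternatives and stood at -0.15 (adjusted p = 0.179) without p300-KO_18. The difference between the knockouts (log2 0.27 ± 0.06, adjusted p = 0.0199) was lost in 5, with adjusted p = 0.0828 without p300-KO_18. The antisense gene Lcorl overlaps Ncapg exons and had 18.5% of its mean level, at 3310 in CBP-KO, 2763 in p300-KO and 3243 in WT.

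Smc4, an ATPase of both condensins, had 55582, 55479.6 and 57418 in CBP-KO and 42814, 46018 and 49103 in p300-KO, with WT at 47420.4, 52262, 46336, 49092 and 56371. The knockouts did not overlap, and WT spanned the gap between them (CBP-KO against p300-KO log2 0.29 ± 0.08, adjusted p = 0.0312, lost in 9 of 24 alternatives, and 0.115 without p300-KO_18). Smc2, its partner, averaged 24196 ± 532 in CBP-KO, 21565 ± 1742 in p300-KO and 21639 ± 2364 in WT, with the widest WT spread of the members (log2 0.17 between the knockouts, adjusted p = 0.272). Ncapd2, another condensin I subunit, had 49889.8, 45012 and 51089 in p300-KO, each below every WT library, of which the lowest had 52726, and did not pass (log2 -0.15, adjusted p = 0.14).

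Neither Top2a nor Mki67, the most abundant members per kb, passed in any comparison. Top2a averaged 120137 ± 7318 in CBP-KO, 109838 ± 9114 in p300-KO and 111693 ± 5926 in WT (log2 0.10 and -0.03, adjusted p = 0.399 and 0.86). Mki67 averaged 257592 ± 11392 in CBP-KO, 263973 ± 7645 in p300-KO and 260591 ± 7253 in WT (log2 -0.02 and 0.02, SE 0.05 each, adjusted p = 0.896 and 0.874). Of the 2 transcription factors, Mybl2, which encodes B-Myb, fell in p300-KO. It had 10872, 9378 and 10802 in p300-KO and 13824, 11412, 11687, 13835 and 11944 in WT, just below the WT range, with WT_4 and WT_46 high (log2 -0.28 ± 0.08, adjusted p = 0.0474, lost in 14 of 24 alternatives, and 0.0727 without p300-KO_18). CBP-KO had 10943, 11214 and 12616 (log2 -0.11, adjusted p = 0.478). Foxm1 stood at log2 0.04 in CBP-KO and -0.07 in p300-KO against WT (adjusted p = 0.804 and 0.604).

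**Figure D3:**
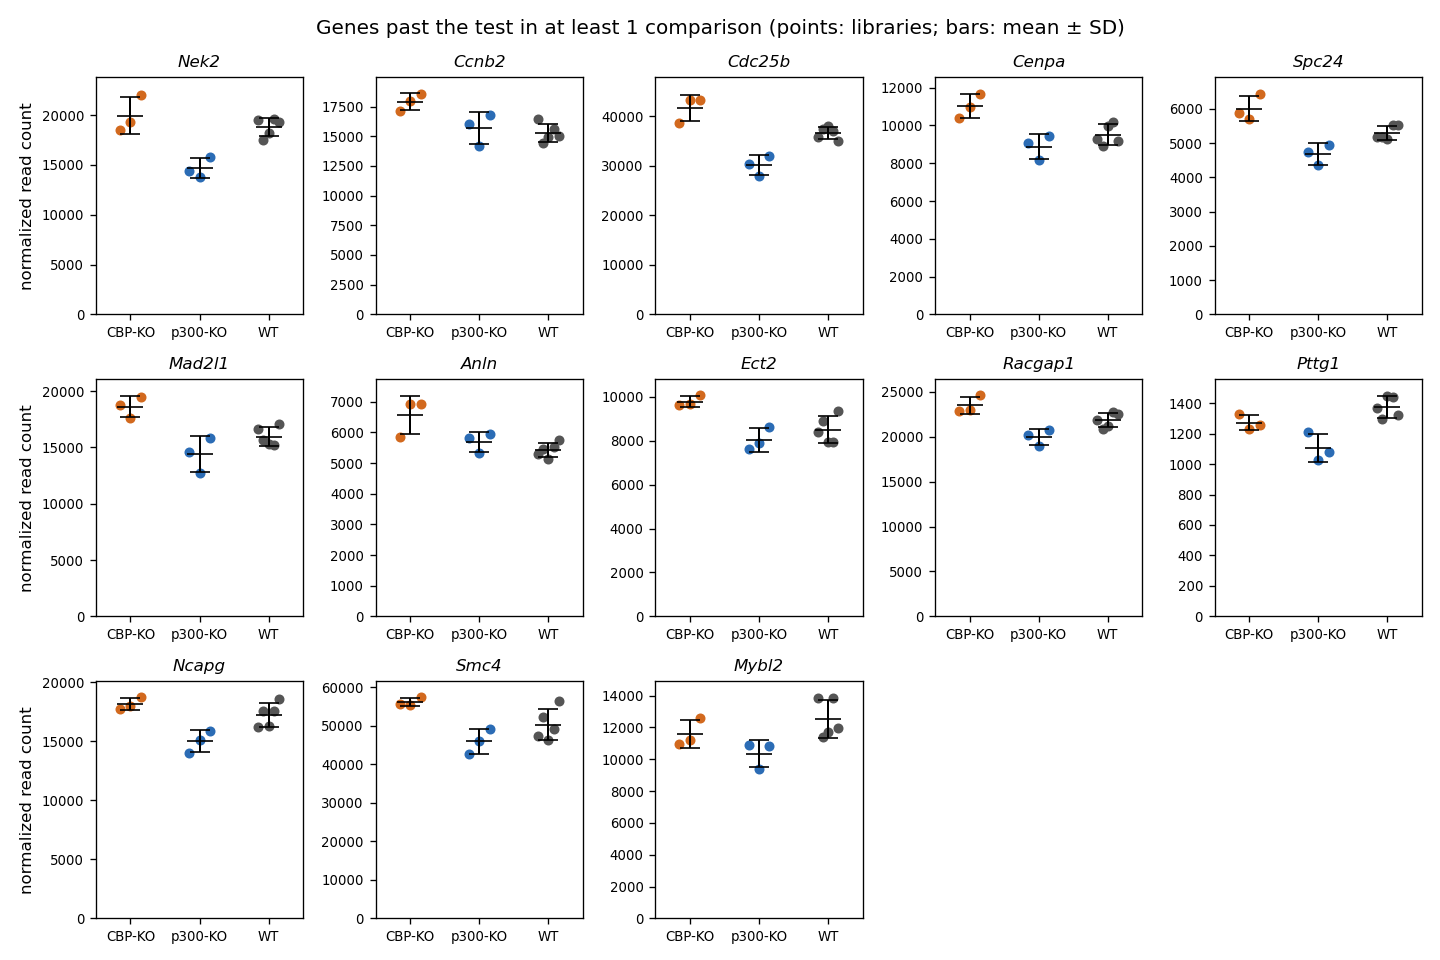
Normalized read count (axis from 0) in each library (points) with mean ± SD (bars) for the 13 genes past the test in at least 1 comparison, in CBP-KO, p300-KO and WT. The CBP-KO points lie above the p300-KO points in every panel but that of Anln, where CBP-KO_1 (5850.4) lies below p300-KO_289 (5937).

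For each of the 7 genes called against WT, the exact two-sided permutation test over libraries gave p = 0.0357. That is the lowest value for 3 and 5 libraries in the form used, which takes 2 times the smaller tail. For each of the 9 called between the knockouts the permutation test gave 0.1, the smallest for 3 against 3, so that design cannot pass 0.05 by that test. Any gene whose groups do not overlap gets these values, so they add nothing to the calls. Counting members whose groups did not overlap gave 12 higher in CBP-KO than in WT (8.43% of all tested genes) and 0 lower (8.47%). It gave 1 higher in p300-KO than in WT (9.63%) and 10 lower (9.4%), and 21 higher in CBP-KO than in p300-KO (15.5%) and 1 lower (15.6%). Without p300-KO_18 it was 1 higher (13.4%) and 11 lower (12.8%) in p300-KO than in WT, and 21 higher (19.2%) and 1 lower (19.6%) in CBP-KO than in p300-KO. Of the calls made by limma, the count in CBP-KO against WT was 0 without CBP-KO_53, CBP-KO_55 or WT_41, and 6 without p300-KO_287. For p300-KO against WT the count of lower members was 3 without p300-KO_18 (5.88%, where 3.95% of all tested genes were lower) and 2 without p300-KO_287. Between the knockouts the count of higher members was 5 without p300-KO_18 (9.8%, where 2.7% of all tested genes were higher). It was 5 without p300-KO_287 or CBP-KO_53 and 3 without CBP-KO_55, which left Nek2, Cdc25b and Spc24. The share of all tested genes called with another library left out is not given here. These changes in count are therefore not read as particular to the members.

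**Figure D4:**
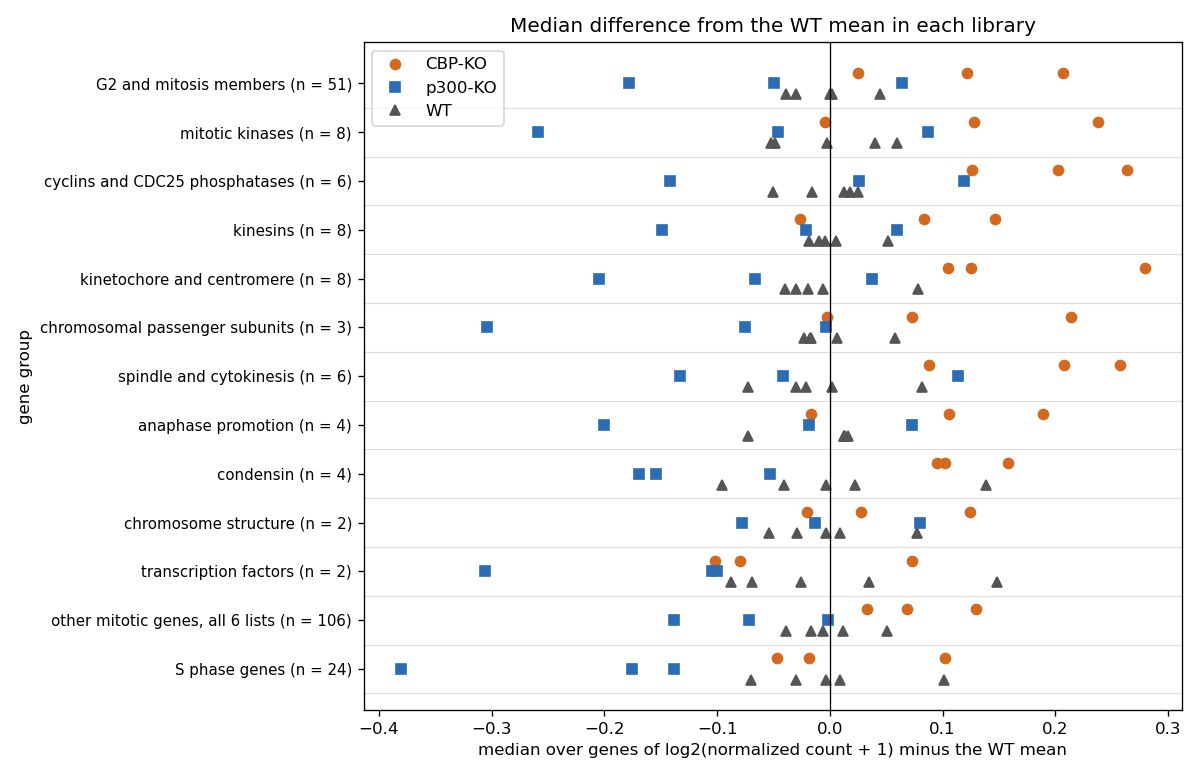
Median over the genes of each group (rows) of log2(normalized count + 1) minus the WT mean, for each CBP-KO, p300-KO and WT library (points). The CBP-KO points spread to the right and p300-KO_287 is the leftmost in most rows. The p300-KO points are all below 0 for condensin, chromosomal passenger subunits, transcription factors, other mitotic genes and S phase genes. Those of the transcription factors (-0.31 to -0.10) and the S phase genes (-0.38 to -0.14) all lie below those of WT.

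The role groups that the design sets side by side, kinases, kinesins, kinetochore genes and condensin, had median log2 fold changes of 0.13, 0.07, 0.17 and 0.12 in CBP-KO against WT. In p300-KO against WT the same groups stood at -0.03, -0.03, -0.08 and -0.14. Between CBP-KO and p300-KO they stood at 0.20, 0.12, 0.17 and 0.22, with 1 of 8, 0 of 8, 3 of 8 and 2 of 4 members past the test. All of these were higher in CBP-KO, as were 4.79% of all tested genes. In groups this small a count of 0 or 1 is no result about the group. Without p300-KO_18 the medians were -0.04, -0.03, -0.08 and -0.11 in p300-KO against WT and 0.22, 0.14, 0.17 and 0.18 between the knockouts. Then 1, 0, 3 and 0 members passed between the knockouts, where 2.7% of all tested genes were higher in CBP-KO. By library, the kinesin medians lay from -0.03 to 0.15 in CBP-KO, from -0.15 to 0.06 in p300-KO and from -0.02 to 0.05 in WT. The condensin medians lay from 0.09 to 0.16 in CBP-KO, from -0.17 to -0.05 in p300-KO and from -0.10 to 0.14 in WT, so WT spanned most of the CBP-KO range. For the kinetochore genes they lay from 0.10 to 0.28 in CBP-KO, from -0.20 to 0.04 in p300-KO and from -0.04 to 0.08 in WT. The largest role medians in CBP-KO against WT were those of the spindle and cytokinesis genes (0.20) and of the cyclins and CDC25 phosphatases (0.19). No difference between role groups was tested, and the spread between libraries within a group was as wide as the differences between the role medians.

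The other genes of the same processes were read from 6 further lists with 106 genes, all tested. In CBP-KO against WT, 1 of 106 rose, Ncapd3, a subunit of condensin II (log2 0.18, adjusted p = 0.0427, and 0.0569 without p300-KO_18), and 0 fell, with a median of 0.08, so that the share called lies below the 3.48% and 4.88% of all tested genes. In p300-KO against WT 0 rose and 14 fell, with a median of -0.07, where 5.84% of all tested genes rose and 6.09% fell. Without p300-KO_18, 8 of 106 fell (7.55%), where 3.95% of all tested genes fell. The falls included Wee1, the kinase that holds CDK1 inactive (log2 -0.46, adjusted p = 0.00056), Cenpp, a subunit of the inner kinetochore (-0.49, adjusted p = 0.00348), and Anapc11, the RING subunit of the anaphase-promoting complex (-0.35, adjusted p = 0.00389). Without p300-KO_18 these held, with adjusted p = 0.00476, 0.0215 and 0.00992. Of 34 other kinetochore and centromere genes 7 fell, of 17 genes of the anaphase-promoting complex 3 fell, of 17 other kinases, phosphatases and regulators 2 fell (Wee1 and Pkmyt1, another inhibitory kinase of CDK1), and of 14 condensin and cohesin genes 1 fell (Esco2, which acetylates cohesin). Of 4 other kinesins 0 passed, and of 20 other spindle and cytokinesis genes Cep55, which acts in abscission, fell (log2 -0.23). Without p300-KO_18 the counts were 4 of 34, 2 of 17, 2 of 17 and 0 of 14, and neither Esco2 (adjusted p = 0.0547) nor Cep55 (0.109) passed. CBP-KO was higher than p300-KO for 17 of 106 and lower for 0, with a median of 0.14, where 4.79% of all tested genes were higher and 4.63% lower. Without p300-KO_18 it was higher for 6 of 106 (5.66%), where 2.7% of all tested genes were higher. Cenpp had the largest of these differences (log2 0.61, adjusted p = 0.00242, and 0.0127 without p300-KO_18), with means of 1083 ± 70.5 in CBP-KO, 710.3 ± 76.8 in p300-KO and 997 ± 55.4 in WT.

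Of 13 subunits of DREAM and MMB and E2F repressors, 1 rose and 0 fell in CBP-KO, and 1 rose and 3 fell in p300-KO against WT. Of all tested genes 3.48% rose and 4.88% fell in CBP-KO, and 5.84% rose and 6.09% fell in p300-KO. Tfdp2, the DP2 partner of E2F factors, rose in both, with means of 2869 ± 102 in CBP-KO, 1989 ± 96.3 in p300-KO and 1338 ± 87.8 in WT (log2 1.10 and 0.57, adjusted p = 1.2e-05 and 0.000231). Lin52 and Lin54, subunits of the core shared by DREAM and MMB, and Rbl1, p107, fell in p300-KO (log2 -0.27, -0.23 and -0.19). Without p300-KO_18 Tfdp2 and Lin52 held in p300-KO against WT (adjusted p = 0.00119 and 0.0352), and Lin54 and Rbl1 did not pass (0.0982 and 0.177). Among 24 S phase genes, 1 rose (Ccne2, cyclin E2, log2 0.47) and 2 fell (Cdt1, a licensing factor, -0.20, and Pold1, of DNA polymerase delta, -0.21) in CBP-KO against WT. In p300-KO against WT 0 of 24 rose and 10 fell, with a median of -0.20, and without p300-KO_18 7 of 24 fell (29.2%, against 3.95% of all tested genes). CBP-KO was higher than p300-KO for 8 of 24 (4.79% of all tested genes), and for 5 of 24 without p300-KO_18 (2.7%). The S phase medians by library lay from -0.38 to -0.14 in p300-KO, below all 5 WT libraries (-0.07 to 0.10), whereas the 51 G2 and mitosis members of p300-KO overlapped WT.

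Markers of zones and of other cells moved with the groups, and their part in the values above was not tested. Beside the counts that follow, 3.48% of all tested genes rose and 4.88% fell in CBP-KO against WT. In p300-KO against WT 5.84% rose and 6.09% fell, and without p300-KO_18 3.65% and 3.95%. Of 10 light zone genes 7 fell and 0 rose in CBP-KO against WT, among them Traf1, an adaptor of CD40 signalling (log2 -0.57), and Irf4 (-0.73). In p300-KO 0 of 10 passed, with or without p300-KO_18. The list's median was -0.31, -0.71 and -0.78 for CBP-KO_1, _53 and _55, where the G2 and mitosis members had 0.02, 0.12 and 0.21. It was -0.11, 0.10 and -0.16 for p300-KO_18, _287 and _289, where the members had -0.05, -0.18 and 0.06. In WT it ranged from -0.24 (WT_46) to 0.12 (WT_41), where the members had 0.0015 and -0.04. The dark zone list's median was 0.13, 0.10 and 0.04 for CBP-KO_1, _53 and _55, an order opposite to that of the members. For p300-KO_18, _287 and _289 it was -0.20, -0.11 and -0.07, below the WT libraries (-0.04 to 0.05). In CBP-KO against p300-KO 3 of 6 dark zone genes were higher (Bach2, Cxcr4 and Polh; 4.79% of all tested genes) and 0 lower (4.63%). Without p300-KO_18, 3 of 6 were higher (2.7% of all tested genes). No relation between these lists and the members was tested. Of 6 dark zone genes outside the cell cycle, Bach2 rose in CBP-KO (log2 0.38, adjusted p = 0.0165) and Cxcr4, the chemokine receptor of the dark zone, fell in p300-KO (-0.19, adjusted p = 0.0431, and 0.0814 without p300-KO_18). Of 5 plasma cell markers (Sdc1, Prdm1, Jchain, Xbp1 and Irf4) 3 rose and 0 fell in p300-KO against WT (Sdc1, Jchain and Xbp1; without p300-KO_18 only Sdc1 and Xbp1), and the list's sum ranged from 68245 to 81269 in p300-KO and from 52899 to 62832 in WT. In CBP-KO the sum ranged from 54524 to 64624, and 1 of 5 passed, Irf4, which is also on the light zone list. The sum of 10 macrophage markers ranged from 1970 to 2877 in CBP-KO, from 2404 to 3223 in p300-KO and from 3503 to 9344 in WT, with 4 of 9 tested members lower in CBP-KO and 1 (Mpeg1) in p300-KO. The sum of 8 T cell markers ranged from 4875 to 6023 in CBP-KO, from 4634 to 5991 in p300-KO and from 9041 to 11247 in WT, most of it Lck, which was lower in CBP-KO and in p300-KO than in WT, as Lat was in CBP-KO. The erythroid sum ranged from 236 to 519 in CBP-KO, from 105 to 320 in p300-KO and from 323 to 567 in WT. Of 5 tested erythroid markers Hbb-bt alone passed, lower in p300-KO than in WT (log2 -2.29) and higher in CBP-KO than in p300-KO (2.25). Of 6 naive and memory B cell markers 0 passed in any comparison.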

How the data were processed

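Gene expression was measured by RNA sequencing in 11 libraries of sorted germinal center B cells (3 CBP-KO, 3 p300-KO and 5 WT). Libraries were made with a TruSeq RNA kit that does not mark strand, per the labels' protocols. CASAVA 1.8, HISAT2, featureCounts, DESeq2 and the mm10 build are named in the submitters' processing notes, and their settings and the gene annotation are not given in the sources used here. The deposited table holds a signal per gene, reads divided by a DESeq2 size factor per library, as the authors made it. It has 48593 rows, of which 22043 were 0 in every library, and 0 columns were left unused. Whole reads could be recovered for 100% of the values (within a tolerance of 1e-06 reads), which gave 53550726 to 132861266 reads per library, and the read counts behind the deposited values were used for edgeR and DESeq2.

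The values are normalized, so the main test was limma 3.58.1 (trend, R 4.3.3) on log2(value + 1) for the 16515 genes with a mean of at least 10, in 1 fit of all 11 libraries, with Benjamini-Hochberg adjusted p below 0.05 as the threshold. Tests on recovered reads were edgeR 4.0.16 (quasi-likelihood) and DESeq2 1.42.0, and single genes were also tested by exact two-sided permutation over libraries (scipy 1.17.1). The fitting procedure was tested on simulated data, where the share of false calls exceeded the nominal threshold and many changes larger than those of the members were missed. The simulated spread was set by formula for all genes and was wider than the members' median spread in WT (4.81%). The share missed there is thus not that of the members. Calls near the threshold are uncertain, and a gene that did not pass is not shown to be unchanged. The members and all lists were chosen with earlier results of these data known. Values are given for members called in any comparison by limma or edgeR, for the 2 members of each role group with the smallest p in each comparison against WT, for the most and least abundant members per kb, for up to 3 called genes per direction of each other list, and for others in the text chosen after their values were seen. Alternatives were pseudocounts of 0.5 and 5, no filter and a mean of at least 50, TMM factors, quantile normalization, only the 2 groups compared in the fit, library weights, edgeR with and without a filter, DESeq2, a sex covariate read from Xist and Y-linked genes, WT_46 and p300-KO_18 left out together, and each library left out in turn. Exon lengths and overlaps came from GENCODE vM21 (GRCm38, the same sequence as mm10). Exons of 17 members overlap another gene, 4 have a pseudogene of their name, and reads could have been split or lost there.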

Additional observations from a re-analysis of the deposited data

Results flagged for a closer look

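The difference between CBP-KO and p300-KO, which is the direct test of a difference between the 2 knockouts, passed limma's adjusted p below 0.05 for 9 members. As log2 of CBP-KO over p300-KO it was 0.44 for Nek2, 0.47 for Cdc25b, 0.31 for Cenpa, 0.36 for Spc24, 0.37 for Mad2l1, 0.28 for Ect2, 0.24 for Racgap1, 0.27 for Ncapg and 0.29 for Smc4. All 9 were higher in CBP-KO, with no overlap between the 3 CBP-KO and the 3 p300-KO libraries. Of all tested genes 4.79% were called higher in CBP-KO, and 15.5% were higher without overlap. Of the 9, 5 still passed without p300-KO_18, 5 with a sex covariate and 3 without CBP-KO_55.

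In 2 cases 1 WT library stood apart from the other 4 by Dixon's test. Ccnf had 9799 normalized counts in WT_41 and 10313 to 10505 in the others, and Kif22 had 13120.4 in WT_7 and 13938 to 14258 in the others. Neither gene was called in any comparison by limma. Chance alone would give such a gap in about 1 of 20 groups tested.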

How the results depend on the processing

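No result reversed its direction past the threshold in the 24 alternatives. The count of members higher in CBP-KO than in WT (2) was 1 with no filter, 7 with quantile normalization, 12 with library weights and 9 with DESeq2, and 0 to 6 with 1 library left out. The count of members lower in p300-KO than in WT (5) was 3 with no filter, 3 with quantile normalization, 3 with only the 2 groups in the fit, 3 without WT_46 and p300-KO_18, and 2 to 4 with 1 library left out. The count of members higher in p300-KO than in WT (0) was 1 with quantile normalization and 1 with DESeq2. The count of members higher in CBP-KO than in p300-KO (9) was 15 with library weights, 14 with DESeq2, 5 with a sex covariate, and 3 to 13 with 1 library left out. The counts of members lower in CBP-KO than in WT or in p300-KO were 0 in each alternative. The share of all tested genes called also changes with the setting, and it is given above only for some settings. Changes in these counts are therefore not read as particular to the members. The members' median log2 fold change ranged from 0.07 to 0.16 in CBP-KO against WT, from -0.11 to 0.0036 in p300-KO against WT (0.0036 without p300-KO_287) and from 0.10 to 0.22 in CBP-KO against p300-KO with 1 library left out. Of the 720 role medians recomputed, 2 moved by more than the spread between libraries, both without p300-KO_289: the cyclins and CDC25 phosphatases in p300-KO against WT to -0.06 and condensin in CBP-KO against p300-KO to 0.27. The causes of these changes were not tested. No paired analysis was possible because every library carries a number of its own.

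With 3 libraries in each knockout group, most differences here are close to the spread between libraries (median SD within groups 0.10 on the log2 scale), and calls near the threshold depend on single libraries. The share of cells with a deleted allele, the share of cells in each cycle phase, and sex, litter and batch were not given by the labels. Genes were read as sums over isoforms without strand.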
